A study of Mus musculus with 13 samples.

Results

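H3K27ac peaks were compared between male mouse melanoma lines with and without a deletion of Cdh1, which codes for E-cadherin. Lines Ma_1062 and Ma_1456 were ΔEcad, and lines Ma_1007 and Ma_1181 were Ecad. All 4 were cultured lines grown out of melanomas of Tyr::NRAS transgenic, Cdkn2a+/−; Cdh1 F/F mice, in which a melanocyte promoter drove an oncogenic NRAS. The ΔEcad mice additionally carried Tyr::CreA, so that recombination of Cdh1 was directed to the melanocyte lineage, whereas the Ecad mice had no Cre and kept the floxed gene. No treatment was given, and the age of the mice was not given in the sources used here. The series held 9 such lists among 13 samples, and the 4 male lists were the ones compared here. Each line came from 1 tumour and had 1 list, so genotype was compared over 2 ΔEcad and 2 Ecad lines. Peaks of the 19 autosomes that overlapped or touched were joined over the 4 lists into 50758 regions. A region was called gained where both ΔEcad lists and neither Ecad list held a peak, and lost where the reverse was true. By this rule 553 regions were gained, 1.09% of all regions, and 2671 were lost, 5.26%. The 5 female lists, 2 Ecad (Ma_1014 and Ma_1039) and 3 ΔEcad (Ma_1057, Ma_1064 and Ma_1069), were not used to choose regions and served as other samples in which the same regions could be looked up.

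H3K27ac is an acetyl mark on histone H3 that sits at active promoters and enhancers, and a peak is a stretch where an antibody against the mark recovered more DNA than the background. E-cadherin, the product of Cdh1, joins neighbouring epithelial cells and melanocytes to keratinocytes, and its inner end holds β-catenin at the membrane. β-catenin that is free of the membrane can enter the nucleus and act with TCF/LEF factors on Wnt target genes, several of which feed back on the pathway. Promoters fall broadly into those with many CpG dinucleotides, typical of genes used in most tissues and of developmental regulators, and those with few, typical of genes used in particular tissues.

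The promoter regions of the lost and gained classes differed in CpG content, and the following 300-base windows, chosen from named regions to illustrate it, lie beyond or at the class medians of 23 CpG in lost and 4 in gained promoters. Each is centred on the summit of the strongest peak of its region and was read from the forward strand of the RefSeq genome sequence, build GRCm38.p6, with every CpG in capitals. The first set comes from lost promoters of Tcf7, a TCF/LEF factor, Sp5, a Wnt-induced repressor of the SP family, and Fli1, an ETS factor. These windows lie at chr11:52282744-52283043, chr2:70475148-70475447 and chr9:32540781-32541080, and hold 29, 30 and 32 CpG.
Tcf7: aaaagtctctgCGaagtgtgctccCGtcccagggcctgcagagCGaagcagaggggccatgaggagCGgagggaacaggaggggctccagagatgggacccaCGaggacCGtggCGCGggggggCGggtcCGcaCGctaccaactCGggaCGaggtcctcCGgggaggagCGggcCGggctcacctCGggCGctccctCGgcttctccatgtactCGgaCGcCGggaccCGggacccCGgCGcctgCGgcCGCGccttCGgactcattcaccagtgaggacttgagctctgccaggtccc
Sp5: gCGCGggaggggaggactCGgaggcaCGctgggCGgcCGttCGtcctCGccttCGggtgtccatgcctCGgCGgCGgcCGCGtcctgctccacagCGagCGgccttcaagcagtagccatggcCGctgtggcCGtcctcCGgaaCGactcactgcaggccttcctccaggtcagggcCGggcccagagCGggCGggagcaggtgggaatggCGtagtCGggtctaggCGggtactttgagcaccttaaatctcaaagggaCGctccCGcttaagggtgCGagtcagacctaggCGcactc
Fli1: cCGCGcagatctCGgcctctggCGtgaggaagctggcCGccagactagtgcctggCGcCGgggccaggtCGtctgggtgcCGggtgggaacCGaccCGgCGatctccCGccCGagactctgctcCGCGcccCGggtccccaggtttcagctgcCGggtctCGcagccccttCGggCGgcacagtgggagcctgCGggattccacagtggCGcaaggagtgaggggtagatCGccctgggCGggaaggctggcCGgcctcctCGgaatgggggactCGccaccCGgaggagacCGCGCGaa
The second set comes from gained promoter regions of Rab11fip3, an adaptor of recycling endosomes, Ptk2b, a kinase related to focal adhesion kinase, and Nav1, a neuron navigator that binds microtubules. These windows lie at chr17:26017762-26018061, chr14:66213945-66214244 and chr1:135584001-135584300, and hold 0, 1 and 4 CpG.
Rab11fip3: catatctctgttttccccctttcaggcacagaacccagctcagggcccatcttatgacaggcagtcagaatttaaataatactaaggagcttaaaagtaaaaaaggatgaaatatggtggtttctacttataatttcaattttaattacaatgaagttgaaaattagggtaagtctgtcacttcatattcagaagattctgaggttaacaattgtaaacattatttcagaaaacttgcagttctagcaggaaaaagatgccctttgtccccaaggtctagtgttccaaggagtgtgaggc
Ptk2b: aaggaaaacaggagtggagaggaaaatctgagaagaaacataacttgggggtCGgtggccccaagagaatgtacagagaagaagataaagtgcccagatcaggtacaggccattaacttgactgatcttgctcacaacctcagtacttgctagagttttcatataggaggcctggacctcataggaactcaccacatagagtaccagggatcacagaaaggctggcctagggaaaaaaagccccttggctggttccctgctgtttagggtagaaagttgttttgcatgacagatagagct
Nav1: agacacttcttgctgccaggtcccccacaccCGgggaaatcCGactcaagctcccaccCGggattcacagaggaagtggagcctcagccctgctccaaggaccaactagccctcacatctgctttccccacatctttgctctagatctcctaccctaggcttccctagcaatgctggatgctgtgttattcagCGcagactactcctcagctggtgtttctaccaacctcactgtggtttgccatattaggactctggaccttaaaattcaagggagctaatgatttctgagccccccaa

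The autosomal lists held 40824 peaks in Ma_1007, 25115 in Ma_1181, 24513 in Ma_1062 and 29644 in Ma_1456. List Ma_1007 was the longest by a wide margin, while the other Ecad list was shorter than one of the ΔEcad lists, so the groups overlapped. The mean was 27078.5 ± 3628 (SD, n = 2) for ΔEcad and 32969.5 ± 11108 (SD, n = 2) for Ecad, a difference smaller than the spread among lines (p = 0.667 in a two-sided exact permutation test). With 2 lines against 2 the smallest p this test allows is 0.333, so no per-line difference could pass a threshold. Covered length was 66.2 and 39.9 Mb in the Ecad lists and 36.7 and 47.4 Mb in the ΔEcad lists, and median peak width was 1161.5 and 1185 bp against 1068 and 1201 bp, again with overlapping groups (exact p = 0.667 and 1). Because the number of peaks depends on read depth, which is unknown for these lists, the classes were drawn a second time from lists of equal length, each reduced to its 24513 peaks of highest −log10 q. This gave 917 gained regions, 2.34% of 39181, and 1609 lost regions, 4.11%. Of the 553 gained regions 441 (79.7%) were gained again, and of the 2671 lost regions 1412 (52.9%) were lost again. Conversely, 458 of the 917 regions gained at equal length had a peak in 3 of the 4 full lists, so they were gained only because a weaker Ecad peak had been left out. Lost regions outnumbered gained ones in both versions, but the excess depended on list length, and values at equal length stand beside those of the full lists.

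Most melanocyte genes had a promoter peak in each male line. Of 16 autosomal melanocyte differentiation genes, 14, 13, 10 and 14 had a peak within 1 kb of a transcription start site (TSS) in Ma_1007, Ma_1181, Ma_1062 and Ma_1456. Among those fixed as identity markers, Kit had none in Ma_1062 and Ma_1456, and Tyrp1 none in Ma_1181 and Ma_1062. Ednrb had one in Ma_1181 alone of these lists. Of 7 fibroblast markers 1, 0, 0 and 0 had one, and of 7 leukocyte markers 2, 1, 1 and 1. None of 6 endothelial markers had a promoter peak in these lists, and of 5 keratinocyte markers 0, 1, 0 and 1 did. At Cdh1 itself (chr8:106603351-106670246) no list had a peak at the promoter, whereas within the gene 5.88 and 5.14 kb were covered in the Ecad lists and 4.45 and 7.38 kb in the ΔEcad lists. Covered length therefore overlapped between the male genotypes. The highest −log10 q within the gene did not overlap, at 395 and 324 in Ecad and 281 and 171 in ΔEcad, and in the female lists it was 333 and 273 in Ecad and 36.5, 39.6 and 121 in ΔEcad. The median −log10 q of the whole lists did not overlap either, at 39.7 and 42.7 against 27.3 and 27.4 in males. In females it was 36.3 and 31.5 against 22.1, 23.1 and 20.7. Peaks were thus called within Cdh1 in both genotypes, and an acetylation peak does not check the deletion.

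Gained regions lay mostly away from promoters, and lost regions lay at promoters more often. A protein-coding TSS lay within 1 kb of 53 of the 553 gained regions, 9.58% (95% Wilson interval 7.4 to 12.3), and of 869 of the 2671 lost regions, 32.5% (30.8 to 34.3). These intervals cover the counting of regions and not the spread between lines. Over all regions the share was 22.3%, over regions called in all 4 lists 50.4%, and over the 6380 regions called in 1 ΔEcad and 1 Ecad list, which were matched to the gained and lost classes in number of lists but mixed in genotype, 9.44%. The gained share thus lay close to that of the mixed class, and the lost share above it. With lists of equal length the shares were 11.1% for gained, 39.0% for lost, 13.0% for the mixed class and 26.7% for all regions, in the same order of gained and lost. Without Ma_1181, when a lost region needed a peak in Ma_1007 alone of the Ecad lists, the shares were 12.4% of gained and 13.7% of lost regions and lay much closer together. Without Ma_1007 they were 12.9 and 21.3%, without Ma_1062 5.90 and 30.1%. A TSS lay inside the region in 24 gained regions (4.34%) and in 561 lost regions (21%), beside 17.4% of all regions. Of the gained regions 85 were in exons (15.4%), 232 in introns (42.0%) and 183 between genes (33.1%), and of the lost regions 187 (7%), 822 (30.8%) and 793 (29.7%). Over all regions these places held 9.19, 34.9 and 33.7%. Regions beyond 100 kb from any TSS made up 13.6% of the gained and 17.4% of the lost, beside 18.5% of all and 21.9% of the mixed class. Among distal regions alone the median distance to a TSS was 20267 bp for gained and 38178.5 bp for lost, beside 33143 bp for all regions and 34030 bp for the mixed class, so the gained class lay closer to TSSs than the others and the lost class near the rest.

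**Figure D1:**
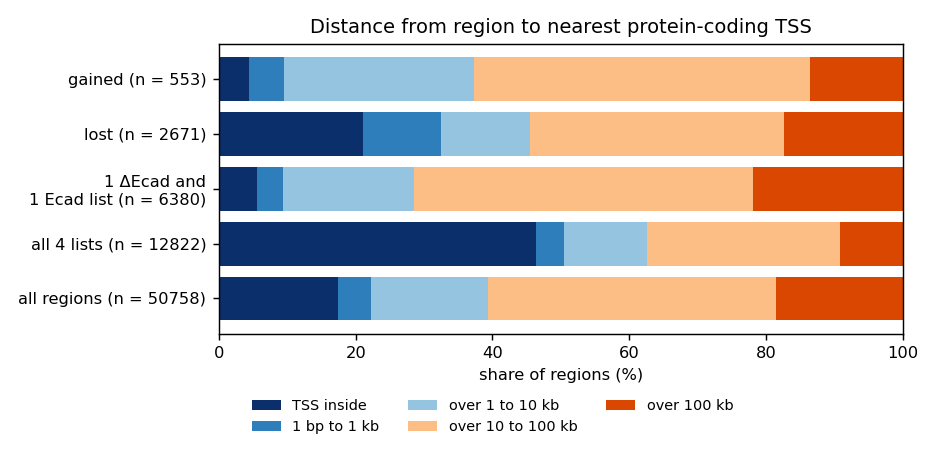
Share of regions (%, x axis) by distance from the region to the nearest protein-coding TSS, for gained, lost, mixed (1 ΔEcad and 1 Ecad list), shared (all 4 lists) and all regions; n is the number of regions. The dark blue sections show a TSS inside 4.34% of gained and 21% of lost regions.

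The per-line counterpart of this pattern was the number of protein-coding genes with a promoter peak, a count added after the data were seen. It was 10142 in Ma_1007 and 9139 in Ma_1181, and 8025 in Ma_1062 and 8169 in Ma_1456. Both ΔEcad lists lay below both Ecad lists, although Ma_1456 held more peaks than Ma_1181. The means were 8097 ± 102 for ΔEcad and 9640.5 ± 709 for Ecad (SD, n = 2 each), a difference of −1543.5 genes (exact permutation test, two-sided, p = 0.333, the smallest possible). With lists of equal length the counts were 8988 and 9112 for Ecad and 8025 and 7609 for ΔEcad, still without overlap. In the female lines, which the rule did not use, the counts were 8538 and 8306 for Ecad and 6225, 6920 and 5224 for ΔEcad. These groups did not overlap either, with a difference of −2299 genes (exact permutation test, two-sided, p = 0.2, the smallest that 3 lines against 2 allow). The median −log10 q of the full lists was also lower in every ΔEcad list. In males it was 27.3 and 27.4 against 39.7 and 42.7, and in females 22.1, 23.1 and 20.7 against 36.3 and 31.5. Whether this accounts for the gene counts was not tested. The share of peaks within 1 kb of a TSS did not separate the male groups, at 26.1 and 36.4% for Ecad and 36.4 and 29.9% for ΔEcad (exact p = 0.667).

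**Figure D2:**
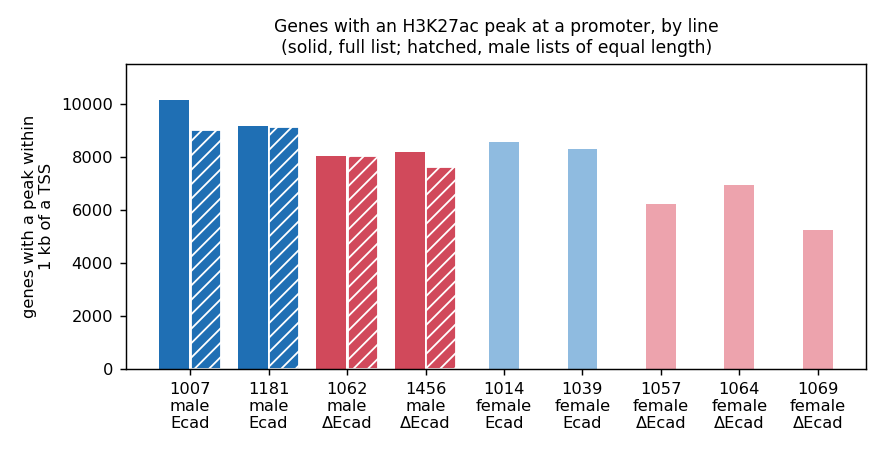
Number of protein-coding genes with a peak within 1 kb of a TSS (y axis, from 0) in each line; solid bars are the full lists and hatched bars the male lists of equal length, 1 list per line with no error bar. The male ΔEcad bars stand at 8025 and 8169, under the male Ecad bars at 10142 and 9139.

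At the level of genes, 744 of the 10719 genes with a promoter peak in any male list had one in both Ecad lists and neither ΔEcad list, and 23 had the reverse. At equal length these counts were 598 and 49 of 10225 genes, of which 500 and 15 were the same as with the full lists. Of the 744 genes, 309 and 235 had a promoter peak in the female Ecad lists Ma_1014 and Ma_1039, and 67, 126 and 56 in the female ΔEcad lists Ma_1057, Ma_1064 and Ma_1069. Over all protein-coding genes the counts in these lists ran in the same direction, at 8538 and 8306, and 6225, 6920 and 5224. A promoter peak in both female Ecad lists and no female ΔEcad list was found for 132 of the 744 (17.7%, against 10.8% of all 10719 genes), among them Crim1, Hras, Notch2, Plcg1 and Crebbp. The opposite female pattern was found for 11 of the 744 (1.48%, against 0.532% of all genes), among them Tcf7, Sp5, Slc7a8 and Unc79. Of the 23 gained genes, 7 had a promoter peak in both female Ecad lists and no female ΔEcad list (30.4%), namely Adamtsl5, Cfap54, Limk1, Mfsd7a, Prickle2, Slc25a34 and Zfp759, and 0 had the opposite pattern. These genes were named after their values were seen.

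Lost promoters were rich in CpG and gained promoters were poor in it. In the 300 bp windows the median was 23 CpG in 869 lost promoter regions and 4 in 53 gained ones, beside 18 in those called in all 4 lists, 9 in the mixed class and 17 in all promoter regions. Windows with at least 10 CpG made up 84.6% of lost promoters (735 windows) and 18.9% of gained promoters (10 windows), against 68.5% of all. At equal length the shares were 86.6% of 628 lost and 26.5% of 102 gained promoters, against 68.1% of all. Median GC content was 65.3% in lost and 47.7% in gained promoter windows, and 59% in all. Summits of lost promoters lay closer to the TSS, at a median of 201 bp against 494 bp for gained promoters and 247 bp for all. Lost promoter regions were narrow, with a median width of 754 bp, compared with 1279 bp for gained promoters and 2071 bp for promoters called in all 4 lists. Away from promoters the classes did not separate in this way: the median was 2 CpG in both, and median GC was 44.7% in gained, 45.7% in lost and 44.7% in all distal windows.

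**Figure D3:**
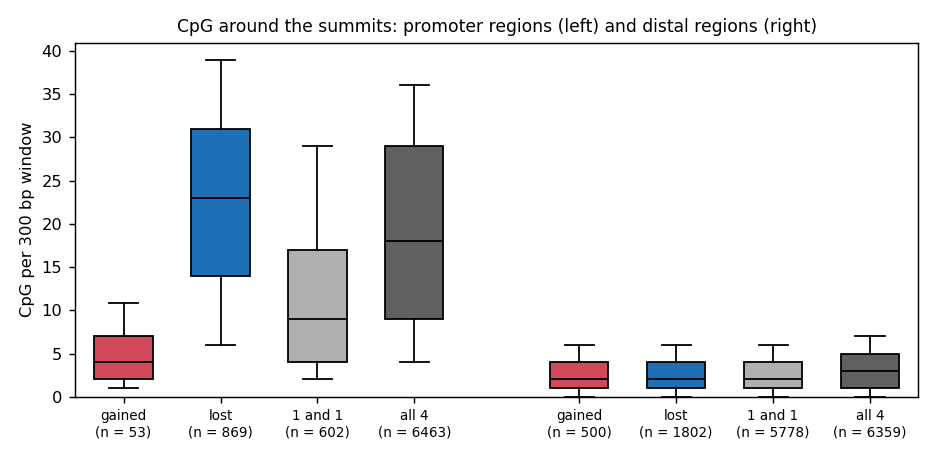
CpG dinucleotides per 300 bp window around the summit (y axis) for promoter regions (left) and distal regions (right) of each class; line, median; box, middle 50% of windows; whiskers, 10th and 90th percentiles; n is the number of windows. Among promoters the lost box has its median at 23 and the gained box at 4, whereas the distal medians of both are 2.

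Most gained and lost regions were weak members of their lists. As a percentile of −log10 q within its own list, the median gained region stood at 27.3 in Ma_1062 and 45.2 in Ma_1456, and the median lost region at 42.5 in Ma_1007 and 29.6 in Ma_1181. In −log10 q the medians were 14.9 and 23.7 for gained and 29.7 and 20.2 for lost, where the lists begin just above 5. Values under 10 were found for 23.1 and 14.8% of gained regions and for 7.90 and 14.2% of lost regions in the same lines. The median width was 1358 bp (95% interval of the median 1279 to 1423) for gained and 1130 bp (1093 to 1155) for lost regions, beside 1354 bp in the mixed class and 2469.5 bp in regions called in all 4 lists. The gap from a gained region to the nearest Ecad peak was 11306 bp at the median, and from a lost region to the nearest ΔEcad peak 14427 bp. Only 31 gained (5.61%) and 181 lost regions (6.78%) lay within 1 kb of a peak of the other genotype. A missing peak says that the mark did not pass the caller's threshold in that line, not that it was absent, and in bulk chromatin fewer cells with the mark and less mark per cell cannot be told apart.

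A few regions were strong, and the highest −log10 q values were those of the lost class. The median −log10 q of a whole list was 39.7 and 42.7 in the Ecad and 27.3 and 27.4 in the ΔEcad lists. Such values are therefore not on 1 scale between the classes. The lost region in an intron of Slc7a8, an amino acid transporter, had a −log10 q of 809 in Ma_1007 and 262 in Ma_1181, with a fold enrichment of 43.0 and 28.6. The same region had no peak in Ma_1014, 14.0 in Ma_1039, and 483, 246 and 499 in the female ΔEcad lists, so it was high in the male Ecad lines and in the female ΔEcad lines. At the promoter of Ptgds, the prostaglandin D synthase (chr2:25467721-25471762), −log10 q was 309 in Ma_1007 and 465 in Ma_1181, and the region was called in all 5 female lists at 84.1 and 101 (Ecad) and 20.7, 40.5 and 32.4 (ΔEcad). Of the 9 lists, Ma_1062 and Ma_1456 alone had no Ptgds promoter peak. A promoter region of Trim2, a ubiquitin ligase, reached 254 and 427, and was called in 4 of the 5 female lists. The promoter of Vldlr, a lipoprotein and reelin receptor, reached 371 and 126, that of Sp4, an SP factor of neurons, 158 and 290, and that of Zic2, a zinc finger factor of neural development, 173 and 163. The CpG-rich Fli1 promoter reached 273 and 102. A promoter region of Akap13, an anchoring protein of kinase A, reached 171 and 132 with no peak in any female list. Trim2 and Akap13 were not among the 744 genes with a promoter peak in both Ecad lists and neither ΔEcad list. The 10 strongest lost regions held 3 promoter regions, at Ptgds, Trim2 and Tcf7, and distal elements that included those nearest to Klhdc4 (365 and 755), Tamm41 (553 and 264) and Usp6nl (583 and 158). All 10 of these regions were lost at equal length too, and 9, 8 and 8 of them had a peak in the 3 female ΔEcad lists, against 3 and 6 in the 2 female Ecad lists. The whole lost class of 2671 regions ran the other way, with 27.3, 31.2 and 25.2% in the female ΔEcad and 34.9 and 32.6% in the female Ecad lists. One promoter of this rank, that of Gm10800, had 63.9 in Ma_1007 and 3813 in Ma_1181 but a fold of only 1.07 and 1.74, and 98.0% of its window was repeat-masked.

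The strongest gained regions held no promoter. The region nearest to Olfr477, an olfactory receptor gene (chr7:107977774-107981310), had a −log10 q of 144 in Ma_1062 and 200 in Ma_1456 and no peak in any female list, and 92.7% of its window was repeat-masked. Regions in introns of the predicted genes Gm6205 and Gm6367 on chromosome 5 had 115 and 373, and 83.2 and 334. Their windows matched in 222 of 299 aligned bases (74.2%), and whether they share reads was not tested. A region in an intron of Mbp, which codes for myelin basic protein, had 171 and 110 in Ma_1062 and Ma_1456, and 26.5 and 95.9 in the female ΔEcad lists Ma_1057 and Ma_1064. A region in an intron of Man1a, a mannosidase of the Golgi (chr10:53926250-53930583), had 68.4 and 177, and 149 and 54.7 in the same 2 female lists. The region nearest to Lrfn2, a synaptic adhesion protein, had 117 and 61.3 and no female peak. All 10 strongest gained regions remained gained at equal length, and 3 and 4 of them had a peak in the female Ecad lists, against 5, 6 and 3 in the female ΔEcad lists. Over all 553 gained regions the shares were 54.1 and 53.2% in the female Ecad and 30.6, 40.1 and 11.8% in the female ΔEcad lists.

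The strongest gained promoter had a mean within-list percentile of 80.2 and the strongest lost promoter one of 93.1. The gained promoter region of Rab11fip3 had 56.9 in Ma_1062 and 98.5 in Ma_1456, that of Nav1 83.5 and 54.6, and that of Ptk2b 98.9 and 27.9. The promoter of Ifit2, an interferon-induced gene, had 35.3 and 106, and that of Scarb1, the HDL receptor, 44.7 and 36.6. The promoter of Mapkapk3, a kinase downstream of p38, had 20.5 and 74.1. All 10 promoter regions of highest rank, which also included those of Samd4, Ofcc1, Myo18a and Apopt1, were gained at equal length. Rab11fip3, Samd4, Ofcc1 and Myo18a were not among the 23 genes with a promoter peak in both ΔEcad lists and neither Ecad list. The 10 regions had a peak in the female Ecad lists in 8 and 7 cases, and in the female ΔEcad lists in 5, 5 and 1 cases. For all gained regions these shares were 54.1 and 53.2%, and 30.6, 40.1 and 11.8%.

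**Figure D4:**
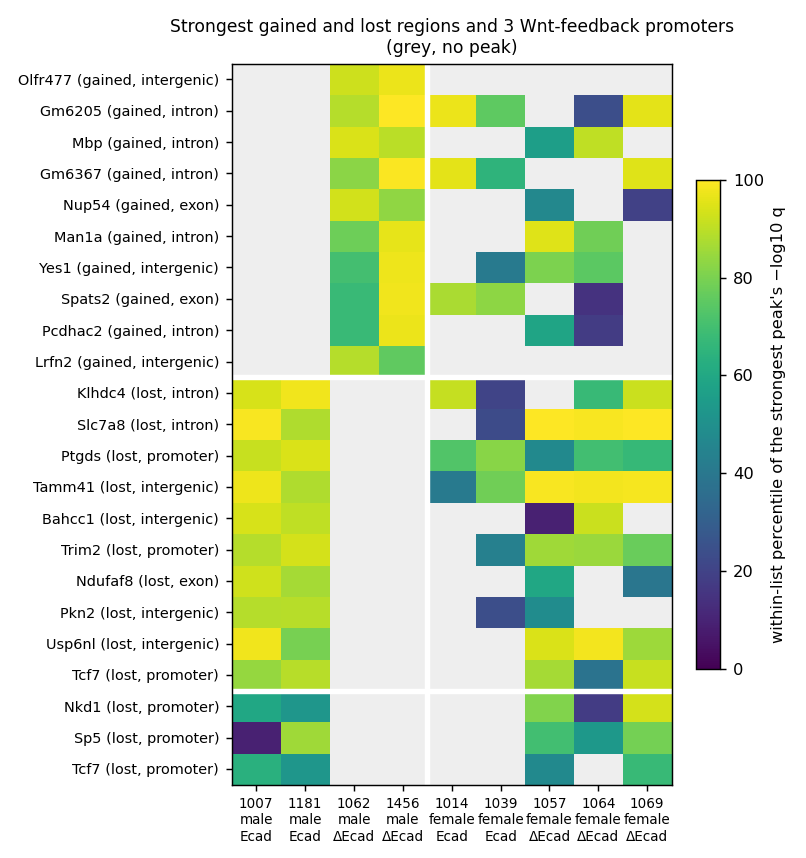
Within-list percentile of −log10 q of the strongest peak (colour scale, 0 to 100) in each of the 9 lists (columns) for the 10 strongest gained regions, the 10 strongest lost regions and 3 lost promoters of Wnt-feedback genes (rows, named by nearest gene); grey marks no peak. The left block is empty in Ecad for gained and in ΔEcad for lost regions by the rule, and the right block shows the Tcf7, Nkd1 and Sp5 promoters without a peak in either female Ecad list.

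Of the 13273 genes that were nearest to at least 1 region, 498 (3.75%) were nearest to a gained and 1985 (15.0%) to a lost region. These shares grow with the number of regions around a gene: among genes with a single region 1.06% had a gained and 6.66% a lost one, and among genes with 16 or more 14.8% and 57.1%. The median gene had 2 regions. Lists of genes with many regions are therefore to be read with their number of regions beside them.

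Wnt and β-catenin feedback genes had lost regions more often than gained ones, and the promoter of each of 3 of them, Tcf7, Sp5 and Nkd1, was lost. Of 13 genes of the list with a region, 6 were nearest to a lost region (Nkd1, Sp5, Tcf7, Lef1, Dkk3 and Myc) and 1 to a gained one (Myc), at a median of 6 regions per gene. The lost share of 46.2% stood beside 20.2% of all genes with 4 to 7 regions. Several of the genes with a lost region lay outside that range, however. Nkd1, Dkk3 and Lef1 had 9, 11 and 14 regions, and 36.6% of all genes with 8 to 15 had a lost one. Myc had 70, and the share among genes with 16 or more was 57.1%. At the level of promoters, 9 and 9 of the 17 genes had a peak in Ma_1007 and Ma_1181 and 4 and 4 in Ma_1062 and Ma_1456. Over all genes the promoter counts also did not overlap in this direction, at 10142 and 9139 against 8025 and 8169. The promoter region of Tcf7 at chr11:52283477-52285071 had a −log10 q of 188 in Ma_1007 and 291 in Ma_1181. A second, CpG-rich Tcf7 promoter region of 884 bp, whose window holds 29 CpG, had 69.4 and 46.3, and a region in its intron 37.6 and 166. The Nkd1 promoter, which belongs to an antagonist that binds Dishevelled, had 58.6 and 46.1, and a region 37754 bp from its TSS had 30.3 and 80.8. The Sp5 promoter was uneven, with 9.47 in Ma_1007 and 230 in Ma_1181, and at equal length it was called in Ma_1181 alone. Of the 13 lost regions 8 remained lost at equal length, and the genes with one were then 4, Nkd1, Tcf7, Dkk3 and Myc. In the female lists the direction was the opposite: the promoters called were 4 and 4 in Ecad and 8, 6 and 10 in ΔEcad, without overlap, while over all genes the counts were 8538 and 8306 in Ecad and 6225, 6920 and 5224 in ΔEcad. The list includes Apcdd1, Axin2, Nkd1, Notum and Sp5. The authors' paper names these genes, from the same lines, for promoter activation mainly in female ΔEcad melanomas. The female counts of this list are therefore not an independent look-up. The lost promoter regions of Tcf7 (chr11:52283477-52285071), Sp5 and Nkd1 had no peak in either female Ecad list and a peak in all 3 female ΔEcad lists, at 81.8, 16.9 and 91.9 for Tcf7, 40.0, 24.9 and 49.3 for Sp5 and 62.8, 10.4 and 106 for Nkd1. In Ma_1064 the peak in the Nkd1 region lay more than 1 kb from the TSS. Axin2 and Ccnd1 had promoter peaks in all 9 lists, and Lef1 had one in every male list but Ma_1062.

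Melanocyte genes had many lost regions, most of them weak. All 16 autosomal genes of the list had a region, with a median of 12.5 per gene, and 8 of them (50%, beside 36.6% of all genes with 8 to 15 regions) were nearest to 17 lost and 2 to 2 gained regions. Only 4 of the 17 lost regions were lost at equal length, and the genes with one were then 3, Tyrp1, Pax3 and Kit. The lost region at Kit, the receptor of stem cell factor, lay 33 bp from a TSS (chr5:75574988-75579293) and had 115 in Ma_1007 and 51.7 in Ma_1181. The region nearest to Pax3, a neural crest factor upstream of Mitf, at chr1:78032197-78033508 had 44.2 and 36.5 and no female peak. At Tyr, the tyrosinase of melanin synthesis, 4 intronic regions had values from 6.86 to 16.1 and none was lost at equal length. At Mitf, the lineage factor, 1 intronic region had 8.97 and 15.8, and it was called in 1 list at equal length. The 2 gained regions were nearest to Dct (16.2 in Ma_1062 and 94.8 in Ma_1456) and Oca2 (9.53 and 18.7), both genes of melanin synthesis.

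RAS-MAPK feedback genes, which dampen or relay signalling below oncogenic RAS, had regions in both classes. Of 14 genes, 7 (50%, beside the same 36.6%) were nearest to 17 lost and 2 to 4 gained regions, at a median of 12.5 regions per gene, and at equal length the counts were 5 and 5 genes. Regions nearest to Etv5, an ETS factor, had 169 and 25.3 in Ma_1007 and Ma_1181 at chr16:22460323-22463509 and 110 and 118 at chr16:22515837-22519177. The first of them had no peak in the female Ecad lists and 376, 274 and 196 in the female ΔEcad lists. An element 62574 bp from Spred1, a RAS inhibitor, had 98.1 and 231. Dusp6, the ERK phosphatase, had 3 gained and 2 lost regions between 90833 and 209389 bp from its TSS, the strongest of which was gained with 37.1 in Ma_1062 and 46.9 in Ma_1456. Spry4, an inhibitor of receptor tyrosine kinase signalling, had a gained region with 19.8 and 60.9. In females, 8 of the 17 lost regions were called in all 3 ΔEcad lists and 5 in both Ecad lists. By list, 12, 13 and 10 had a peak in ΔEcad and 7 and 5 in Ecad. Over all lost regions the shares were 27.3, 31.2 and 25.2% in ΔEcad and 34.9 and 32.6% in Ecad.

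With the full lists AP-1 genes had no gained region and 3 of 11 (27.3%) had a lost one, at a median of 4 regions per gene. Of all genes with 4 to 7 regions, 6.33 and 20.2% had a gained and a lost one. At equal length 1 AP-1 gene, Fosb, had a gained region as well as a lost one. The element 4900 bp from Jun had 115 in Ma_1007 and 183 in Ma_1181 and no peak in any female list. The Maff promoter had 259 and 16, and a promoter region of Fosb 35.7 and 23.9, and all 3 remained lost at equal length. Outside this region, Fosb had a promoter peak in Ma_1456. Among TGF-β and BMP response genes 3 of 15 (20%, at a median of 4 regions, beside the same 20.2%) had a lost and 0 a gained region, including Tgfbi, a matrix protein induced by TGF-β, and Smad7, an inhibitor of the pathway. An element 22221 bp from Tgfbi had 125 and 23.5, and another, 6956 bp away, 32.9 and 259. Among axon guidance genes 8 of 26 (30.8%, at a median of 10.5 regions, beside 36.6% of all genes with 8 to 15) had a lost and 3 (11.5%, beside 6.71%) a gained region. The lost promoter of Robo1, a receptor for Slit proteins, at chr16:72662680-72663469 had 52.6 and 222, whereas a region nearest to Slit2, one of its ligands, was gained with 9.53 in Ma_1062 and 33.5 in Ma_1456. Of 12 cadherin and catenin genes, with a median of 6 regions, 3 (25%, beside 20.2%) had a lost and 2 (16.7%, beside 6.33%) a gained region. The lost element 61181 bp from Ctnnb1, which codes for β-catenin, had 98.5 and 75.3, and gained elements nearest to Cdh11 and Cdh13 had 79.5 and 41.6, and 92.4 and 12.2. The promoters of Cdh2, which codes for N-cadherin, and of Ctnnb1 were called in all 9 lists.

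Apart from the markers of other cell types, the remaining lists had few members in either class, with lost shares of 4.35 to 13.3%, beside 15.0% of all genes. Their medians were 4 to 7 regions per gene, except for antigen presentation genes with 1. Among all genes with 4 to 7 regions 6.33% had a gained and 20.2% a lost one, and among those with a single region 1.06 and 6.66%. YAP and TEAD targets had 1 lost (8.33%) and 2 gained (16.7%) of 12, with the promoter of Crim1 lost at 59.7 and 39.5 and a distal region of Ccn1 gained at 23.0 and 18.7. The other gained gene was again Crim1, through a region 1179401 bp from its TSS. Collagen, integrin and matrix genes had 1 lost (Itga4) and 1 gained (Col5a1, with 10.9 and 69.0) of 23. Neural crest-like and invasive state genes had 2 lost (Sox9 and Zeb2) and 0 gained of 15. Antigen presentation genes had 1 lost of 11, a promoter region of Irf1, an interferon response factor, with 35.1 and 23.1 and no female peak. Outside this region, Irf1 had a promoter peak in Ma_1456. Among CDK inhibitors 1 of 9 was lost (Cdkn1c) and 1 gained, with 2 regions nearest to Cdkn2b, the stronger of which had 10.4 in Ma_1062 and 163 in Ma_1456. Of the markers of other cell types, Dcn, Pecam1, Cdh5 and Trp63 each had 1 lost region, and none of these was lost at equal length. With the full lists the lost shares were 16.7% of 6 fibroblast, 40% of 5 endothelial and 33.3% of 3 keratinocyte markers with a region.

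The genes nearest to the most lost regions were Met and Zbtb20 with 8 each, followed by Dst, Etv1 and Ptprg with 7 each and Itga4 with 6. Met, the receptor for hepatocyte growth factor, had 8 of its 28 regions lost. One of these spanned a Met TSS over 10046 bp (chr6:17537443-17547488), the widest of the lost class, with 115 in Ma_1007 and 77.0 in Ma_1181. The other Met regions had between 7.70 and 24.5 in Ma_1007, and the wide region alone was lost at equal length. Zbtb20, a zinc finger repressor, kept 6 of its 8 lost regions at equal length, all in or near the gene on chromosome 16. Etv1, an ETS factor, kept 4 of 7, the strongest of which had 147 and 32.2. Ptprg, a receptor tyrosine phosphatase, kept 5 of 7, with 146 and 166 in the strongest. Dst, a linker of cytoskeletal filaments, and Itga4, an integrin, kept 2 of 7 and 1 of 6. No gene had more than 3 gained regions, a number reached by 8 genes. These included Basp1, a membrane protein of growth cones, Foxp2, a forkhead factor, and Dock3, a Rac activator whose strongest gained region had 23.0 and 119. A gained promoter region of Foxp2 had 49.2 and 11.3. Foxp2 was not among the 23 genes with a promoter peak in both ΔEcad lists and neither Ecad list.

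The chromosomes differed in the balance of the classes. On chromosome 16, 2 regions were gained and 122 lost of 1856, shares of 0.108 and 6.57%. At equal length these were 9 and 85. Chromosome 12 had the highest share of lost regions, 9.32% (205 regions). Chromosomes 5, 10 and 17 had 59, 52 and 38 gained against 105, 113 and 66 lost regions, and at equal length more gained than lost, with 99 against 50, 77 against 45 and 65 against 33, as was also so on chromosomes 15 and 18. Gained regions were scattered, with at most 4 in a window of 1 Mb. Of all 1 Mb windows the most lost regions lay in chr2:173000001-174000000, where 13 of 31 regions were lost, nearest to genes such as Pmepa1, Zbp1 and Rae1. The chromosome number of the lines was not measured here, so a difference in DNA copies between lines and a difference in the mark cannot be told apart.

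**Figure D5:**
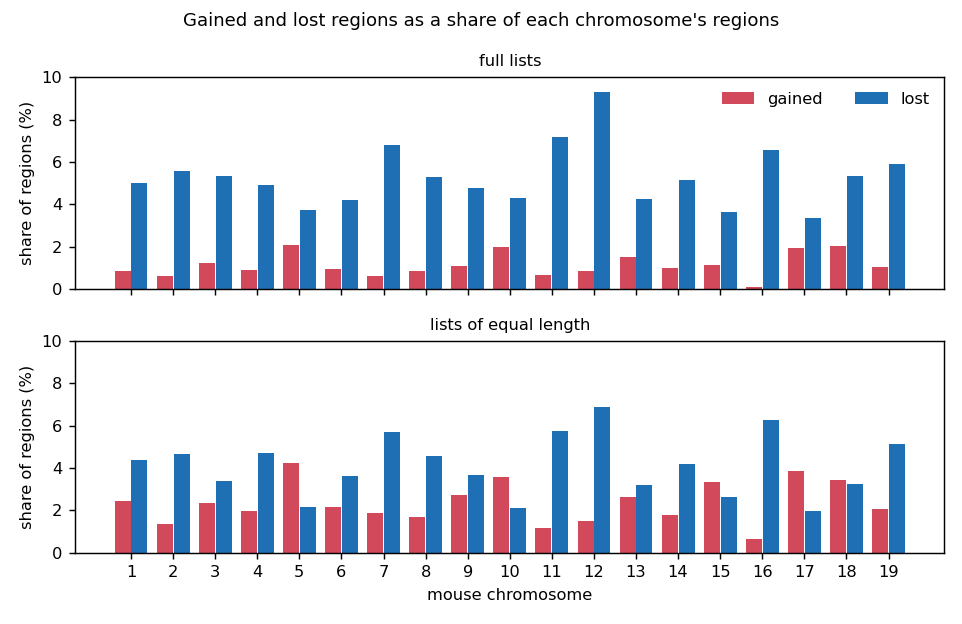
Gained (red) and lost (blue) regions as a share (%, y axis, from 0) of the regions of each autosome (x axis), with the full lists in the upper panel and lists of equal length in the lower one. Chromosome 16 has the lowest gained share, 0.108% with the full lists, and the red bars exceed the blue ones on chromosomes 5, 10, 15, 17 and 18 in the lower panel.

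Distal windows of the classes held similar shares of the motifs searched. The letters were, on either strand, TGAGTCA for AP-1, TCACGTGA or TCATGTGA for MITF, CTTTGAT or CTTTGAA for TCF/LEF, GGAATGT or GGAATGC for TEAD, AACAAAG or AACAATG for SOX, and GGGCGG for the GC box. AP-1 letters were in 6.6% of gained, 5.05% of lost and 6.33% of all distal windows. MITF letters were in 1.8, 2.11 and 2.2%, TCF/LEF letters in 12.4, 14.8 and 13.3%, TEAD letters in 7.6, 8.27 and 7.96%, and SOX letters in 14.4, 13.3 and 14.8%. The classes thus differed from all distal regions by less than 2 percentage points for each of these with the full lists. At equal length SOX letters were in 16.6% of gained and 14.3% of all distal windows. At promoters the GC box was in 15.1% of gained and 48.9% of lost windows, against 37.2% of all, and its letters contain a CpG. A window with AP-1 letters, in capitals, is given from each class, a lost element nearest to Etv5 (chr16:22461999-22462298) and the gained element nearest to Col5a1 (chr2:27858488-27858787), on the forward strand of GRCm38.p6, no other motif of the set being found in either.
Etv5: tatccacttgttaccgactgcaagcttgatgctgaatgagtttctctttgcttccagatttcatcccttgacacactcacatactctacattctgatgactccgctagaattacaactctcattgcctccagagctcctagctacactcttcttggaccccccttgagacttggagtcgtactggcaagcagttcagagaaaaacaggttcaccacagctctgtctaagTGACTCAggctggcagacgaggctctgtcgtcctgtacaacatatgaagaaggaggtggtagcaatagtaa
Col5a1: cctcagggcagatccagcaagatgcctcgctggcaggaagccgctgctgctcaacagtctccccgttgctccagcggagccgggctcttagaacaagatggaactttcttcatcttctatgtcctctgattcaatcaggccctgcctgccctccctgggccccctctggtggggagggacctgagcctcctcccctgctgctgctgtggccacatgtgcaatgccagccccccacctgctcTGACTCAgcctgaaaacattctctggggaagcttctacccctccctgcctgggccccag

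In the female lists the gained regions did not follow genotype in the male direction. A peak was found at 54.1 and 53.2% of the 553 gained regions in the female Ecad lists Ma_1014 and Ma_1039, and at 30.6, 40.1 and 11.8% in the ΔEcad lists Ma_1057, Ma_1064 and Ma_1069. The ΔEcad lists were all below the Ecad lists, with a difference of −26.1 percentage points in the means (27.5 ± 14.4, SD, n = 3, against 53.6 ± 0.639, SD, n = 2, exact permutation test, two-sided, p = 0.2, the smallest possible). With the gained class drawn without Ma_1062 the difference was −7.57 points. Over all 50758 regions the difference, ΔEcad minus Ecad, was −9.34 points (exact p = 0.2), and the female lists covered 44.9 and 44.9 Mb in Ecad and 33.6, 39.0 and 29.1 Mb in ΔEcad. Lost regions had a peak in 34.9 and 32.6% of cases in female Ecad and 27.3, 31.2 and 25.2% in female ΔEcad lists, a difference of −5.87 points (exact p = 0.2). Over the mixed class the difference was −9.94 points (exact p = 0.6).

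Each of the 50758 regions joined from the male lists was also classed by its peaks in the female lists. It counted as gained in females with a peak in every female ΔEcad list and no female Ecad list, and as lost with the reverse. Regions with a peak in female lists alone were not included. Of the 553 regions gained in males, 2 (0.362%) were gained in females and 106 (19.2%) were lost in females, beside 2.37 and 8.35% of all regions and 3.28 and 12.3% of the mixed class. Of the 2671 regions lost in males, 331 (12.4%) were lost and 200 (7.49%) were gained in females. At equal length of the male lists the regions gained in males and lost in females were 152 (16.6%, beside 8.60% of all and 13.1% of mixed regions). Those lost in males and gained in females were 163 (10.1%, beside 2.79% of all and 4.25% of mixed regions). The 200 regions made up 16.6% of the 1202 regions of the male lists that were gained in females. The 106 made up 2.5% of the 4240 regions of the male lists that were lost in females. Regions of the mixed class made up 17.4% of the former and 18.4% of the latter. Of all regions, 5.26% were lost and 1.09% gained in males. Sex and line cannot be told apart for any single region, since each list is 1 line.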

How the data were processed

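H3K27ac chromatin immunoprecipitation was sequenced in 9 lines, and each deposited list held the peaks of 1 line. The authors aligned reads with bowtie2, and the submitters' processing notes name Bowtie2 2.4.5, MACS2 2.2.7.1 and deepTools 3.5.1.0.0 without their settings. Files of the 4 input samples were not used here, and which input served which list was not given in the sources used here. Per the file headers and values, the deposited columns used were fold enrichment (a ratio), −log10 q as the caller wrote it, and the peak position and summit in GRCm38. The deposited p-value and integer score columns were not used. Values are relative to the background of each list, read depth is unknown, and a list ends just above a −log10 q of 5.

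Autosomal peaks of the 4 male lists that overlapped or touched (0 bp gap) were joined. Distances were taken to protein-coding TSSs of GENCODE M21 (20807 autosomal genes), a promoter lying within 1 kb. Windows of 300 bp came from the RefSeq sequence of GRCm38.p6. Lines were the replicates, compared by exact permutation tests (Python 3.11.15, numpy 2.4.6), and shares have Wilson intervals. The joining of peaks, the calling of classes and the cutting of lists to equal length were tested on simulated lists.

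Named were the 10 gained and 10 lost regions, and 10 promoters of each, with the highest mean within-list percentile of −log10 q, the 6 genes with most gained and most lost regions, genes of the fixed lists, Cdh1 and the markers. The members and gene lists were chosen with earlier results of these data known. Alternatives were lists of equal length, −log10 q of at least 10, a peak covering at least 50% of the region, a 500 bp join, all gene types, a 2.5 kb promoter and leaving out each line, and, added later, the strongest 10000 or 20000 peaks.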

Additional observations from a re-analysis of the deposited data

Results flagged for a closer look

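The same contrast of genotypes gave opposite classes in the 2 sexes at some regions. Of the regions gained in males, 106 (19.2%, beside 8.35% of all regions and 12.3% of the mixed class) were lost in females, with a peak in both female Ecad lists and no female ΔEcad list. In the other direction, 200 of the regions lost in males (7.49%, beside 2.37% of all regions and 3.28% of the mixed class) were gained in females. More of the regions lost in males, 331 (12.4%), were lost in females too. Among the 200 were the Tcf7 promoter region, a promoter region of Slc7a8 and a region near Etv5. The 106 and the 200 were single regions in which every line of 1 sex moved one way and every line of the other sex the opposite way, and the difference was not tested.

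The sex chromosomes lay outside the comparison. On X, 4 regions were gained in the male ΔEcad lists and 66 were lost, of 1108, and on Y 0 were gained and 3 lost of 35. The lost share on X, 5.96%, stood beside 5.26% of autosomal regions.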

How the results depend on the processing

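The larger number of lost than gained regions and the higher promoter share of lost regions held under every alternative run with all 4 lines, but their sizes moved. Lists of equal length gave 917 gained and 1609 lost regions, a lost promoter share of 39.0% and median widths of 1467 and 1401 bp for gained and lost. A −log10 q of at least 10 gave widths of 1487 and 1193 bp and a lost promoter share of 37.5%. Peaks covering at least 50% of the region gave promoter shares of 14.9 and 40.3% and widths of 1522.5 and 1339 bp. Joining over 500 bp gave a lost width of 1196 bp, TSSs of all gene types gave promoter shares of 17.5 and 38.5%, and a 2.5 kb promoter 15.6 and 34.7%. With the strongest 10000 peaks, an alternative chosen after seeing the data, 792 regions were lost, the promoter shares were 21.7 and 61.6% and the widths 2438 and 2042.5 bp. With the strongest 20000, likewise, 1341 were lost, the lost promoter share was 46.5% and the widths 1679 and 1521 bp. The cause of these shifts was not tested.

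Leaving out 1 line at a time gave 914 to 6378 gained and 4392 to 14945 lost regions, since fewer lists had to share a call. Promoter shares ran from 5.90 to 12.9% for gained and from 13.7 to 32.4% for lost regions, and widths from 603.5 to 1484.5 bp and from 656 to 1359 bp. Without Ma_1062 alone more regions were gained (6378) than lost (5150). Per list, ΔEcad minus Ecad, the differences ran from −13745.5 to 1963.5 peaks, turning positive without Ma_1007, and from −24.2 to 2.16 Mb covered, likewise. Median peak width ran from −105.25 to 27.75 bp, turning positive without Ma_1062. The promoter share of peaks ran from −3.20 to 7.12 percentage points, negative without Ma_1007 and without Ma_1062 (−1.29), and was −2.12 at equal length. Genes with a promoter peak ran from −2045 to −1042, negative throughout. In the female lists the difference for gained regions ran from −32.5 to −7.57 points and for lost regions from −15.3 to 1.32, positive without Ma_1181. None of these per-line values could pass a threshold at this number of lines.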
